A study of Mus musculus with 6 samples.

Results

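The 40 genes described here encode proteins that license and copy DNA or that carry cells through mitosis. These genes were chosen by name for these roles, with earlier results of these data known. They span the MCM2-7 helicase and its loaders, the enzymes that supply nucleotides, the cyclins and their kinases, the transcription factors E2F1 and FOXM1, and the kinases, checkpoint proteins and motors of mitosis. All 40 were found among the 15139 rows of the deposited table, and all 40 passed the filter on low values, at least 1 FPKM in at least 2 libraries, which 11365 genes passed. FPKM are scaled to gene length and library size, so genes of unlike length can be compared. Mean levels of the 40 genes ran from 1.69 FPKM for Ccnd1 to 257.1 FPKM for Ccnd3.

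Mouse bone marrow cells had been cultured for 1 week in RPMI with 10% fetal bovine serum and the cytokines IL3 (10 ng/ml) and SCF (50 ng/ml), which sustain immature myeloid cells and mast cells, before their mRNA was sequenced. The wild-type group (WT) is labelled MxCre Dnmt3a+/+ and has 3 libraries. The knockout group (KO) is labelled MxCre Dnmt3a-/- and has 2 libraries with values, replicates 2 and 3, while its replicate 1 was not analysed here. One label field calls the latter group a knockdown, and the titles call it a knockout. Both genotypes carry MxCre, a recombinase under the interferon-inducible Mx1 promoter, which is active in blood cells and in other tissues. Dnmt3a is a DNA methyltransferase that sets new methylation marks. The sources used here give neither the age of the animals nor an inducing agent, nor whether each replicate was an animal of its own. The p-values therefore measure the spread between these libraries, which may be in part technical.

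A dividing cell licenses its origins in G1, when CDC6 and CDT1 load the MCM2-7 helicase, and commits to S phase when cyclin D with CDK4 or CDK6 and cyclin E with CDK2 phosphorylate the retinoblastoma protein and release E2F. Genes of licensing and S phase are classical E2F targets. Genes of mitosis are repressed in quiescent cells by the DREAM complex and later activated by B-MYB and FOXM1, through a promoter element called CHR that often lies near CCAAT boxes bound by NF-Y. In myeloid culture these genes track how much of the population is cycling, and many mature myeloid cells leave the cycle. In bulk RNA, fewer cycling cells and less of each transcript per cell cannot be told apart.

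Promoter sequences show how the mitotic and the licensing members differ in these elements. RefSeq windows of GRCm38.p6, from 250 bases before to 50 bases after each transcript start, were matched by gene for 30 of the 40 genes, Mcm7 and Ccnd3 with 2 windows each. A gene was counted once, as holding a motif where any of its windows did. They were searched on both strands for TTTGAA (CHR), TTTGGCG and TTTCGCG (E2F) and CCAAT. The stretches printed are those of the mitotic members Top2a and Ccnb2 and the licensing members Mcm3 and Mcm6, the 2 of highest mean level in each class that held a motif. Plk1 and Mcm5, which fell in the knockout, were added after their values were seen. Each runs 5′ to 3′ on the gene's own strand up to the base before the annotated gene, with the motifs on either strand in capitals. The Top2a stretch is chr11:99024200-99024439 (minus strand), the Ccnb2 stretch chr9:70421555-70421804 (minus strand), and the Plk1 stretch chr7:122159185-122159434 (plus strand).
Top2a: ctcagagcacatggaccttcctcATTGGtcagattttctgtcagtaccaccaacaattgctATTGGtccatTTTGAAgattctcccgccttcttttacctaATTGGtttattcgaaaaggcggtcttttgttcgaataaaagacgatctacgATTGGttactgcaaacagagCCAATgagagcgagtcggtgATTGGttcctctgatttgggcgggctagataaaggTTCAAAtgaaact
Ccnb2: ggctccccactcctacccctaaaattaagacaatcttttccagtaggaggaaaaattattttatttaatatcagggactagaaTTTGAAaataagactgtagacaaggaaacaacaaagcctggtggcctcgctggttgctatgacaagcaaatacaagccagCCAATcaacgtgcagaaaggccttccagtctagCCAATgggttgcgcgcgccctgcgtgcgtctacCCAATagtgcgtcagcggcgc
Plk1: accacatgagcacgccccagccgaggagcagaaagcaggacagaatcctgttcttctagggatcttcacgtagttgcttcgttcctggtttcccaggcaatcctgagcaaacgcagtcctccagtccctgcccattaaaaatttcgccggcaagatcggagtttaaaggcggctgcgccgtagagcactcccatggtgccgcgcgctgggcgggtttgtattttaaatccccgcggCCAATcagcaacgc
The Mcm3 stretch is chr1:20820313-20820562 (minus strand), the Mcm6 stretch chr1:128359706-128359955 (minus strand), and the Mcm5 stretch chr8:75109259-75109467 (plus strand).
Mcm3: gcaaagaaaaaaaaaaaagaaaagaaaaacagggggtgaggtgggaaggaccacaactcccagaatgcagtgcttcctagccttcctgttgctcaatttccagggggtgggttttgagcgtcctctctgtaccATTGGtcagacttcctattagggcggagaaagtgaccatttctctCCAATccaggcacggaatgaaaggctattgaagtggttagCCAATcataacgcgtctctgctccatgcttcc
Mcm6: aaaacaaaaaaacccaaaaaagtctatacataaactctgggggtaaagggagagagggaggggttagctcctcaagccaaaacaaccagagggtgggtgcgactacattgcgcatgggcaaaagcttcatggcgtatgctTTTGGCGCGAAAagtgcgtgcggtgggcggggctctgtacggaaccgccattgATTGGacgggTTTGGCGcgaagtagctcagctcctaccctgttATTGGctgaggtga
Mcm5: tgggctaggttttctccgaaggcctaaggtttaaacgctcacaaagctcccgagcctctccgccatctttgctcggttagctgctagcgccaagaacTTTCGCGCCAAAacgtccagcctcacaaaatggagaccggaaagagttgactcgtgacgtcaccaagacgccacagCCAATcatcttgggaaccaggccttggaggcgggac
Counted from the transcript start, Top2a holds CHR at -179 and, on the other strand, at -23, and CCAAT boxes at 6 positions. Ccnb2 holds CHR at -167 and 3 CCAAT boxes, at -87, -54 and -21. Another CHR match of Ccnb2 lies at 5 after the start, outside the printed stretch. Plk1 holds 1 CCAAT box, at -14, in the printed stretch, and its CHR match lies at 31 after the start. Mcm6 and Mcm5 each hold E2F motifs on both strands that overlap by some bases, at -110 and -105 in Mcm6 and at -153 and -148 in Mcm5. The E2F match of Mcm3 lies at 39 after the start, outside the printed stretch.

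Among the 30 genes with a window, CHR was held by 9 of 12 mitotic members (75.0%), 2 of 12 members of licensing and S phase (16.7%) and 0 of 6 G1 and transcription factor members. The share was 14.6% over the 8945 tested genes with a window and 20.2% over all 27025 genes of the RefSeq table. E2F motifs were held by 5 of 12 members of licensing and S phase (41.7%) and 1 of 12 mitotic members (8.33%, Cdk1), against 5.05% of tested genes and 2.68% of all genes of the table. CCAAT was held by 22 of 30 members (73.3%), against 43.4% of tested genes and 41.1% of all genes of the table. CHR was held by 3 of the 7 members with a window that fell (42.9%) and by 8 of the 22 with a window that did not pass (36.4%). The motifs overlapped only within E2F, in Mcm6 and Mcm5. A match is a description of letters and shows no binding.

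In the knockout 11 of the 40 genes fell, 7 of the 16 mitotic genes among them, and 2 rose, a D cyclin and its kinase, while 27 did not pass. The test was limma on log2(FPKM + 1), with Benjamini-Hochberg adjustment across the 11365 tested genes and a threshold of 0.05. The genes that fell were Ccnd1, Kif20a, Cdt1, Plk1, Bub1, Gmnn, Aurka, Aurkb, Bub1b, Mcm5 and Ccnb1. Cdk6 and Ccnd2 rose. The 11 that fell are 27.5% of the members, beside 13% of all tested genes, and the 2 that rose are 5.00%, beside 9.08%. The log2 change was negative for 37 of 40 members as deposited, and for 31 to 34 under the 4 other scalings of the libraries. Its median was -0.19, beside -0.04 over all tested genes, of which 57.0% were negative. Both knockout libraries lay below every WT library for 28 members (70.0%, beside 30.8% of tested genes) and above every WT library for 2 (5.00%, beside 20.4%).

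**Figure D1:**
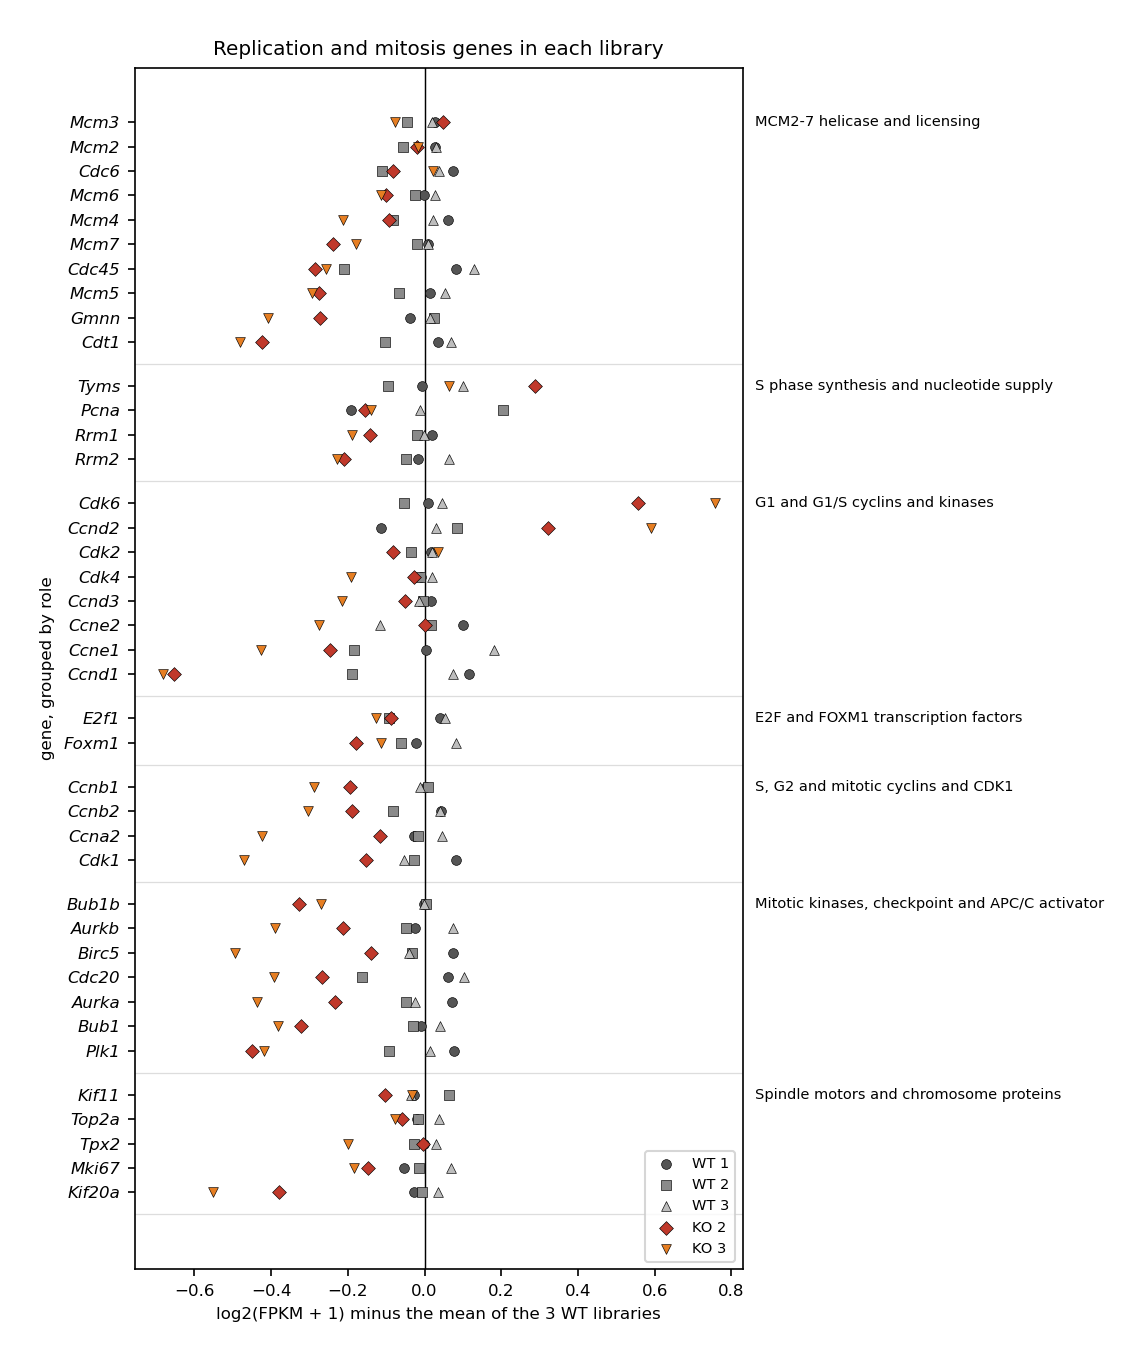
Each of the 40 genes in each library, as log2(FPKM + 1) minus the mean of the 3 WT libraries, grouped by role. Grey symbols are WT libraries, and the red diamond and orange triangle are KO replicates 2 and 3. The knockout symbols lie left of the WT symbols for 28 genes and right of them for Cdk6 and Ccnd2.

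The count of genes that fell depended on single libraries and on scaling. It was 5 without WT replicate 1, beside 1156 of 11292 tested genes, and 6 without WT replicate 2, beside 944 of 11257. Without WT replicate 3 it was 3, beside 1026 of 11274. Leaving out a knockout library leaves that group 1 sample. The median log2 change of the members was then -0.22 without KO replicate 2 (-0.04 over all tested genes). Without KO replicate 3 it was -0.15 (-0.05 over all tested genes). The libraries also differ in sex: WT replicates 2 and 3 held Xist at 14.37 and 15.32 FPKM, while WT replicate 1 and both knockout libraries held the Y-linked Ddx3y at 12.98, 14.10 and 14.77 FPKM. The female libraries are all WT, so a comparison within females was not possible. For the same reason the fit with sex as a term estimates genotype from both knockout libraries against WT replicate 1 alone. In that contrast WT has no replicate, here and wherever a call is given with sex as a term. With sex as a term, Cdk6 and Ccnd2 still rose (4.58% of tested genes rose in that fit) and Plk1 alone fell (6.97% of tested genes fell). Against the male WT library alone, both knockout libraries were lower for 34 of 40 members, beside 43.8% of tested genes, and higher for 4, beside 32.7%. That description has no replicate in WT.

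**Figure D2:**
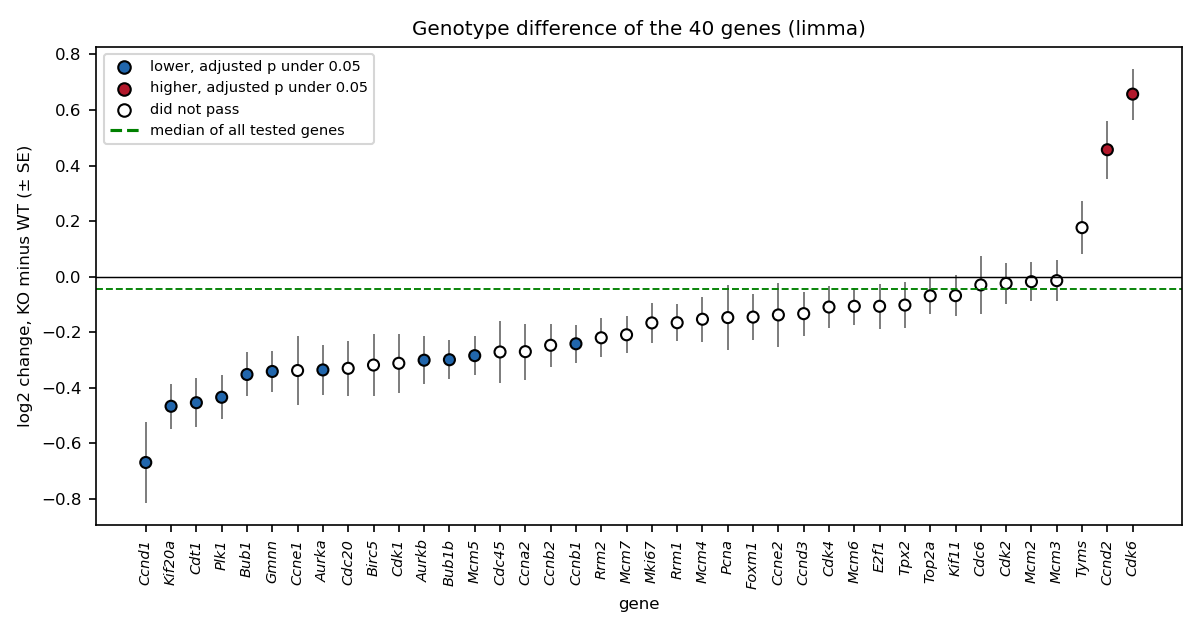
Log2 change, KO minus WT, of each gene with its standard error from limma, in order. Filled blue points fell, filled red points rose, open points did not pass, and the dashed line is the median of all tested genes. Members run from -0.67 for Ccnd1 to 0.66 for Cdk6.

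Of the 10 members of the licensing group Cdt1, Gmnn and Mcm5 fell, 0 rose and 7 did not pass. The share that fell was 30.0%, beside 13% of all tested genes, and the median was -0.18, beside -0.04. CDT1 loads the helicase and geminin, encoded by Gmnn, binds CDT1 and blocks a second round of loading. Cdt1 (chr8:122568015-122573130) was at 16.67, 15.03 and 17.07 FPKM in WT replicates 1, 2 and 3 and at 11.84 and 11.34 FPKM in KO replicates 2 and 3. It fell from 16.3 ± 1.08 (SD, n = 3) to 11.6 ± 0.354 FPKM (SD, n = 2). The log2 change was -0.45 ± 0.09 (SE, adjusted p = 0.0103). The groups did not overlap, and the call was lost in 1 of 17 alternatives, with sex as a term (adjusted p = 0.0597). Gmnn (chr13:24751845-24761937) was at 52.39, 54.82 and 54.32 FPKM in WT and at 44.35 and 40.33 in the knockout. Its log2 change was -0.34 ± 0.07 (SE, adjusted p = 0.0173), with every WT library above both knockout libraries. The loader and its inhibitor were thus lower side by side, and the ratio of Gmnn to Cdt1 FPKM was 3.32 ± 0.281 in WT and 3.65 ± 0.134 in the knockout, with overlapping libraries. The Gmnn call was lost with sex as a term (adjusted p = 0.149) and without WT replicate 2 or 3.

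The MCM2-7 proteins form the ring that unwinds DNA, and 1 of its 6 genes fell, beside 13% of all tested genes. Mcm5 (chr8:75109468-75128439) was at 52.55, 49.65 and 54.00 FPKM in WT and at 42.85 and 42.27 in the knockout, a log2 change of -0.28 ± 0.07 (SE, adjusted p = 0.0291). Its groups did not overlap, but its call was kept in only 6 of 17 alternatives. Mcm3, the most abundant of the ring and of the whole group, was at 83.18, 79.11 and 82.74 FPKM in WT and at 84.49 and 77.35 in the knockout, so the knockout libraries lay on either side of WT. The other ring genes had WT and knockout means of 71.6 and 66.5 FPKM for Mcm6, 57.0 and 49.2 FPKM for Mcm7, 37.2 and 36.7 FPKM for Mcm2, and 32.0 and 28.7 FPKM for Mcm4. The order from Mcm3 through Mcm6, Mcm7, Mcm5 and Mcm2 to Mcm4 was the same in both genotypes. The log2 changes of Mcm2 (-0.02) and Mcm3 (-0.01) were positive under the 4 other scalings. Summed over the ring, levels were 331.6 ± 9.02 FPKM in WT and 304.5 ± 6.15 in the knockout, with no overlap. Cdc6, the other loader, had a log2 change of -0.03 ± 0.10 (SE), which was positive under 3 of the 4 other scalings. Cdc45, which joins the ring when an origin fires, had one of -0.27 ± 0.11 (SE, adjusted p = 0.135), and its knockout libraries were below every WT library.

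None of the 4 genes of DNA synthesis and nucleotide supply passed. Pcna encodes the sliding clamp of the replicative polymerases and was the most abundant, at 176.49, 232.19 and 199.82 FPKM in WT and at 180.98 and 182.89 in the knockout. The spread within WT covered both knockout libraries. Rrm1 and Rrm2, the subunits of ribonucleotide reductase, had log2 changes of -0.17 ± 0.07 and -0.22 ± 0.07 (SE, adjusted p = 0.124 and 0.0654). Both genes were lower in each knockout library than in every WT library, and their ratio, Rrm1 over Rrm2 FPKM, was 0.725 ± 0.0283 in WT and 0.752 ± 0.0114 in the knockout. Tyms, thymidylate synthase, was the 1 member outside the D cyclin axis with a positive log2 change (0.18 ± 0.10 SE, adjusted p = 0.243).

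Of 8 G1 genes, Cdk6 and Ccnd2 rose, Ccnd1 fell and 5 did not pass. The shares were 25.0% that rose and 12.5% that fell, beside 9.08% and 13% of all tested genes. CDK6 is a cyclin D kinase prominent in blood cells. Cdk6 (chr5:3341004-3531008) was at 11.61, 11.08 and 11.95 FPKM in WT replicates 1, 2 and 3 and at 17.45 and 20.19 FPKM in KO replicates 2 and 3. The WT libraries lay within 1 FPKM of each other and both knockout libraries were far above them. The mean rose from 11.5 ± 0.438 (SD, n = 3) to 18.8 ± 1.94 FPKM (SD, n = 2), and the log2 change was 0.66 ± 0.09 (SE, adjusted p = 0.00284). The call was kept in all 17 alternatives, with adjusted p between 0.00175 and 0.0286. Cdk4, its paralog, was at 150.42, 150.16 and 153.34 FPKM in WT and at 148.48 and 132.38 in the knockout, with a log2 change of -0.11 ± 0.08 (SE, adjusted p = 0.361). Cdk6 therefore made up 7.09% ± 0.191 of the summed Cdk4 and Cdk6 FPKM in WT and 11.9% ± 1.92 in the knockout, while the sum was 162.9 ± 2.15 and 159.2 ± 9.45 FPKM.

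D cyclins bind CDK4 and CDK6 and link growth signals to the cell cycle, and their 3 genes did not move together. Ccnd2 (chr6:127125162-127152188) was at 28.72, 33.12 and 31.81 FPKM in WT and at 39.23 and 47.43 in the knockout, a log2 change of 0.46 ± 0.10 (SE, adjusted p = 0.0209). Ccnd1 (chr7:144929931-144939831) was at 2.41, 1.76 and 2.31 FPKM in WT and at 1.00 and 0.96 in the knockout, a log2 change of -0.67 ± 0.15 (SE, adjusted p = 0.0171). Both were free of overlap between the groups, in opposite directions. Ccnd3, the most abundant of the 40 genes, was at 269.69, 265.63 and 263.90 FPKM in WT and at 257.20 and 229.30 in the knockout and did not pass (log2 change -0.13 ± 0.08 SE, adjusted p = 0.279). Ccnd3 made up 88.9% ± 0.686 of the summed cyclin D FPKM in WT and 84.5% ± 2.76 in the knockout. Ccnd2 made up 10.4% ± 0.771 and 15.1% ± 2.75, and Ccnd1 0.721% ± 0.118 and 0.341% ± 0.00671. The sum of the 3 genes was 299.8 ± 1.54 FPKM in WT and 287.6 ± 14.0 in the knockout. Leaving out WT replicate 1, WT replicate 3 or KO replicate 3 ended the Ccnd2 call, with adjusted p up to 0.0820. The Ccnd1 call was lost with sex as a term and without WT replicate 3 or either knockout library (adjusted p up to 0.0736). The log2 change of a gene as low as Ccnd1 is understated by the added 1, and it ran from -1.05 with a pseudocount of 0.1 to -0.26 with 5.

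**Figure D3:**
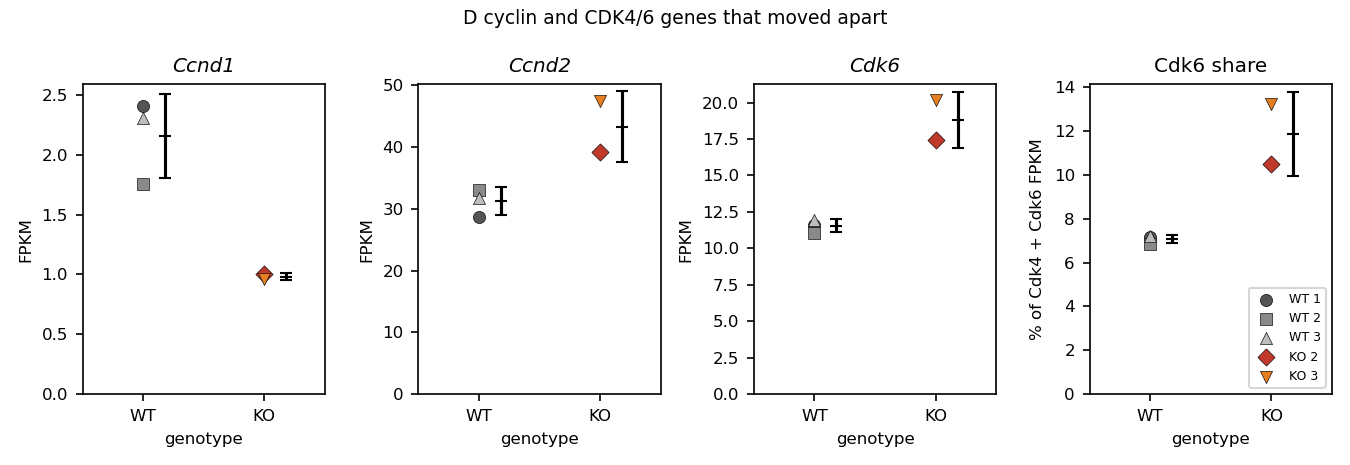
FPKM of Ccnd1, Ccnd2 and Cdk6, and Cdk6 as a percent of the summed Cdk4 and Cdk6 FPKM, in each library by genotype. Bars beside the points are mean ± SD (WT n = 3, KO n = 2). No knockout point overlaps the WT points in the 4 panels.

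The remaining G1 members did not pass. Cyclin E drives entry into S phase with CDK2. Ccne1 had a log2 change of -0.34 ± 0.12, Ccne2 one of -0.14 ± 0.12 and Cdk2 one of -0.02 ± 0.07 (SE, adjusted p = 0.0983, 0.449 and 0.853). The Cdk2 change was positive under the 4 other scalings. Of the 2 transcription factors, E2f1 was at 22.05, 20.04 and 22.28 FPKM in WT and at 20.13 and 19.55 in the knockout, with WT replicate 2 between the knockout libraries. Foxm1 had a log2 change of -0.15 ± 0.08 (SE, adjusted p = 0.265).

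Among the genes of S, G2 and mitotic cyclins with CDK1, which drive the later cycle, 1 of 4 fell (25.0%, beside 13% of all tested genes). All 4 were lower in each knockout library than in every WT library, as were 30.8% of tested genes. Ccnb1, cyclin B1, was at 50.42, 50.63 and 49.95 FPKM in WT and at 43.89 and 41.01 in the knockout, a log2 change of -0.24 ± 0.07 (SE, adjusted p = 0.0462). Ccnb2, cyclin B2 and the most abundant of the 4, was at 65.92, 60.32 and 65.81 FPKM in WT and at 55.95 and 51.64 in the knockout and did not pass (adjusted p = 0.0640). The B cyclins thus had nearly the same log2 change (-0.24 and -0.25) on both sides of the threshold. Ccna2, cyclin A2, and Cdk1 had log2 changes of -0.27 ± 0.10 and -0.31 ± 0.11 (SE, adjusted p = 0.103 and 0.0811), and for both KO replicate 3 was farther from WT (-0.42 and -0.47) than KO replicate 2 (-0.12 and -0.15). The Ccnb1 call was kept in 6 of 17 alternatives.

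The mitotic kinases and checkpoint genes were the role group with the most genes that fell, 5 of 7, and none rose. Over all tested genes 13% fell and 9.08% rose. The median log2 change of the group was -0.33, beside -0.04 over all tested genes. All 7 lay lower in each knockout library than in every WT library, as did 30.8% of tested genes. Plk1, a kinase of mitotic entry and spindle assembly (chr7:122159435-122169884), was at 37.03, 32.84 and 35.42 FPKM in WT replicates 1, 2 and 3 and at 25.40 and 25.99 FPKM in KO replicates 2 and 3. It fell from 35.1 ± 2.11 (SD, n = 3) to 25.7 ± 0.417 FPKM (SD, n = 2), and its log2 change was -0.43 ± 0.08 (SE, adjusted p = 0.00839). The knockout libraries were nearly equal and clear of WT, and the call was kept in all 17 alternatives, with adjusted p between 0.00691 and 0.0357.

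Aurora A (Aurka) acts at spindle poles and Aurora B (Aurkb) at centromeres. Aurka was at 30.40, 27.90 and 28.38 FPKM in WT and at 24.40 and 21.07 in the knockout (log2 change -0.34 ± 0.09 SE, adjusted p = 0.0354). Aurkb was at 34.45, 33.89 and 37.02 FPKM in WT and at 30.17 and 26.56 in the knockout (log2 change -0.30 ± 0.09 SE, adjusted p = 0.0451). In both, KO replicate 3 was the lowest library. Bub1 and Bub1b encode kinases of the spindle assembly checkpoint. Bub1 was at 13.12, 12.90 and 13.61 FPKM in WT and at 10.36 and 9.91 in the knockout (log2 change -0.35 ± 0.08 SE, adjusted p = 0.0193). Bub1b was at 26.50, 26.61 and 26.48 FPKM in WT and at 20.95 and 21.82 in the knockout (log2 change -0.30 ± 0.07 SE, adjusted p = 0.0222). For both checkpoint genes the WT libraries were close together and each knockout library was below them. Birc5, survivin, a partner of Aurora B and the most abundant of this group, was at 101.46, 94.18 and 93.69 FPKM in WT and at 87.36 and 68.08 in the knockout and did not pass (log2 change -0.32 ± 0.11 SE, adjusted p = 0.0861). Cdc20, the mitotic activator of the anaphase-promoting complex, had a log2 change of -0.33 ± 0.10 (SE, adjusted p = 0.0544). Calls were kept in 11 of 17 alternatives for Bub1, 9 for Bub1b, 7 for Aurka and 5 for Aurkb, and all 4 were lost with sex as a term and without WT replicate 1, 2 or 3.

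Of the 5 spindle motor and chromosome genes 1 fell (20.0%, beside 13% of all tested genes) and 4 did not pass. Their median was -0.10, beside -0.04 over all tested genes. Kif20a, a kinesin of the central spindle in cytokinesis, was at 29.55, 29.96 and 30.87 FPKM in WT and at 22.92 and 20.22 in the knockout. Its log2 change was -0.47 ± 0.08 (SE, adjusted p = 0.00703), and the call was lost in 1 of 17 alternatives, with sex as a term (adjusted p = 0.0682). The WT libraries were tight and both knockout libraries lay well below them. Top2a, the topoisomerase that untangles sister chromatids and the most abundant of this group, was at 77.36, 77.47 and 80.56 FPKM in WT and at 75.24 and 74.26 in the knockout (log2 change -0.07 ± 0.07 SE, adjusted p = 0.509), and its log2 change was positive under quantile normalization. Mki67, the common proliferation marker, had one of -0.17 ± 0.07 (SE, adjusted p = 0.151), the spindle assembly factor gene Tpx2 one of -0.10 ± 0.08, and Kif11, the kinesin that separates spindle poles, one of -0.07 ± 0.07. The changes of the mitotic genes were thus unequal, from -0.47 for Kif20a to -0.07 for Top2a and Kif11, and the Kif11 change was also positive under quantile normalization.

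**Figure D4:**
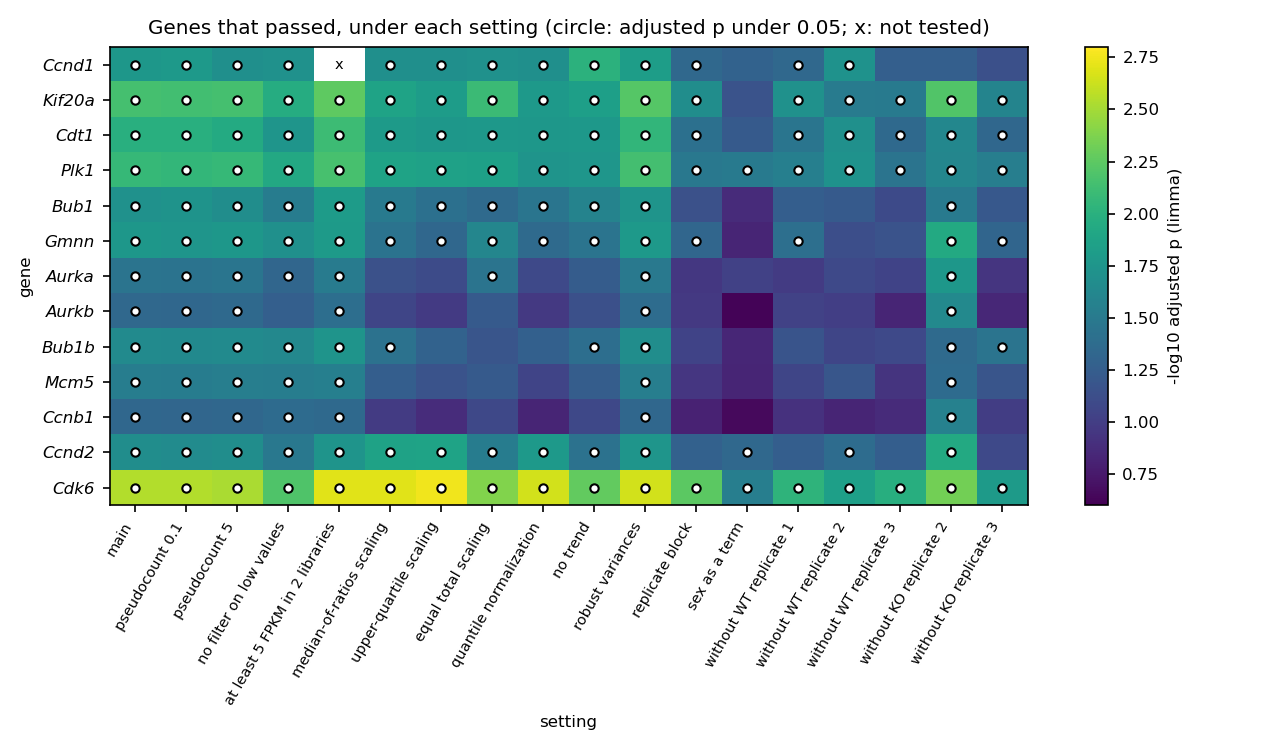
The 13 genes that passed, under the fit reported and 17 alternatives, coloured by -log10 of the limma adjusted p. A white circle marks an adjusted p under 0.05 and an x a gene left out by the filter. Cdk6 and Plk1 carry a circle in every column, and Cdt1 and Kif20a in every column but that with sex as a term.

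The authors' deposited table carries its own tests of these genes. In the authors' deposited table, Cdk6 alone of the 40 had an adjusted p under 0.05 (0.000724, with a signed fold of 1.63), beside 6.09% of all rows. By the first, unadjusted p of the authors' deposited table, 19 of the 40 were under 0.05, beside 23.87% of all rows, in either direction. Of the 19, 17 were lower in the knockout. All rows here include those that failed the filter on low values, which all 40 members passed, so the sets are unlike.

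Other genes of replication, cell-cycle control and mitosis, 204 in 8 lists with no member among them, were read from the same fit. Of 203 tested, 9 rose and 18 fell (4.43% and 8.87%, beside 9.08% and 13% of all tested genes), with a median of -0.12. Without WT replicate 1 these counts were 6 and 9, beside 823 and 1156 of all 11292 tested genes. Without WT replicate 2 they were 5 and 8, beside 679 and 944 of 11257. Without WT replicate 3 they were 5 and 6, beside 748 and 1026 of 11274. With sex as a term they were 5 and 3, beside 4.58% and 6.97% of all tested genes. Cdkn1a, the inhibitor p21, was at 205.47, 190.88 and 198.47 FPKM in WT and at 322.51 and 372.88 in the knockout (log2 change 0.80 ± 0.09 SE, adjusted p = 0.00104). Every knockout library was far above WT. Of 18 tested CDK inhibitors, activators and cofactors 3 rose and 4 fell (16.7% and 22.2%). Cdkn2b (p15) rose by 0.40, and the phosphatase gene Cdc25a and cyclin F (Ccnf) changed by -0.41 and -0.37. Their calls were kept in 10, 4 and 10 of 17 alternatives. The inhibitor genes of this list went both ways. Cdkn2a also rose (log2 change 0.29), while Cdkn2d fell from 68.59 to 57.15 FPKM (log2 change -0.26, adjusted p = 0.0286). Cdkn1b and Cdkn2c had log2 changes of -0.10 and -0.09 and did not pass. Cdkn1c was under 1 FPKM in every library and was not tested.

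Of 18 genes of the E2F, RB and DREAM list 2 rose and 2 fell (11.1% each way, beside 9.08% and 13% of all tested genes). Rb1, the retinoblastoma protein, was at 20.93, 21.25 and 24.05 FPKM in WT and at 31.84 and 33.31 in the knockout (log2 change 0.54 ± 0.09 SE, adjusted p = 0.00487). Its relative Rbl2 rose by 0.34, while the activator E2f2 and the repressor E2f6 changed by -0.53 and -0.38 (adjusted p = 0.0479, 0.00718 and 0.0159). The calls of Cdkn1a and Rb1 were kept in all 17 alternatives, that of E2f2 in 16, E2f6 in 13 and Rbl2 in 8.

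Among 37 DNA polymerase and fork genes 3 rose and 3 fell (8.11% each way), below the shares over all tested genes. Dna2, a nuclease and helicase of flap processing, was at 10.94, 10.21 and 9.50 FPKM in WT and at 4.60 and 4.51 in the knockout (log2 change -1.01 ± 0.09 SE, adjusted p = 0.000634), with no overlap. Rnaseh2c, a subunit of RNase H2, changed by -0.82, while Top1, topoisomerase I, and Rfc2, a clamp loader subunit, rose by 0.65 and 0.47 (adjusted p = 0.00189, 0.000946 and 0.00378). These 4 calls were kept in all 17 alternatives. In the nucleotide synthesis list of 15 genes 0 rose and 4 fell (0% and 26.7%, beside 9.08% and 13% of all tested genes). Samhd1, a dNTP hydrolase, which breaks dNTPs down rather than making them, had the largest fall of this list, at -0.65 (adjusted p = 0.000838). Umps, of pyrimidine synthesis, followed at -0.49 (adjusted p = 0.00590). Their calls were kept in 17 and 16 of 17 alternatives. Of 20 origin recognition and firing genes 0 rose and 2 fell (0% and 10.0%, below the shares over all tested genes). These were Gins1 at -0.56 and Mcmbp at -0.29 (adjusted p = 0.0192 and 0.0475). The Gins1 call was lost with sex as a term and without WT replicate 2, WT replicate 3 or KO replicate 3 (-0.37 without the last), and the Mcmbp call was kept in 5 of 17 alternatives.

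Few genes of the other mitotic lists passed, beside 9.08% of all tested genes that rose and 13% that fell. As deposited, most of their log2 changes were negative, beside 57.0% over all tested genes. The shares were 90.9% of centromere, kinetochore and checkpoint genes, 78.6% of spindle and cytokinesis genes, and 79.4% of cohesin, condensin and anaphase-promoting complex genes. Both knockout libraries lay below every WT library for 30.3%, 53.6% and 47.1% in turn, beside 30.8% of tested genes. Of 33 centromere, kinetochore and checkpoint genes 0 rose and 2 fell, the checkpoint kinase gene Ttk at -0.42 and the centromeric histone gene Cenpa at -0.28 (adjusted p = 0.0299 and 0.0443). The Ttk call was kept in 9 of 17 alternatives and the Cenpa call in 7, being lost without any 1 of the WT libraries. Of 28 spindle and cytokinesis genes Ckap2l rose by 0.51 and Racgap1 changed by -0.33 (adjusted p = 0.00441 and 0.0172), with calls kept in 17 and 13 of 17 alternatives. None of 34 genes of cohesin, condensin and the anaphase-promoting complex passed, and the most abundant, Ube2s, had a log2 change of -0.19 (adjusted p = 0.327). List medians ran from -0.18 for the CDK inhibitors, activators and cofactors to 0.00 for the E2F, RB and DREAM list.

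**Figure D5:**
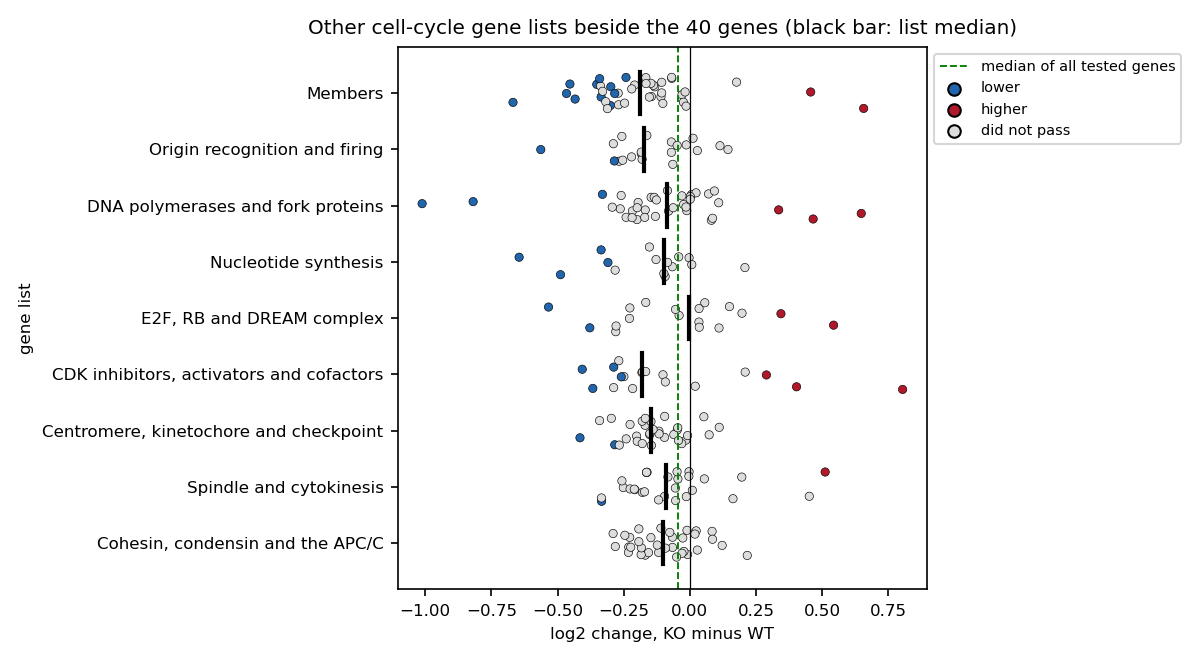
Log2 change, KO minus WT, of the 40 members and of 8 other lists of cell-cycle genes. Each point is a tested gene, blue where it fell, red where it rose and grey where it did not pass, and the black bar is the median of the list. The dashed line is the median of all tested genes, -0.04, and the member median lies at -0.19.

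Markers of the cell types in the culture also moved with genotype. Dnmt3a itself was at 6.68, 9.99 and 9.04 FPKM in WT and at 2.58 and 3.42 in the knockout (log2 change -1.25 ± 0.17 SE, adjusted p = 0.00279). FPKM per gene do not show which exons the remaining reads came from. Over all genes 1032 rose and 1475 fell, so that 41.2% of calls were upward, beside 49.6% under median-of-ratios scaling, 52.5% under upper-quartile scaling and 50.4% under quantile normalization. Of 13 mast cell markers 10 rose, and their summed level was 12170 to 13950 FPKM in WT and 28610 to 32770 FPKM in the knockout. Of 15 monocyte and macrophage markers 13 fell (6600 to 8508 against 2738 to 2974 FPKM), as did 11 of 14 neutrophil markers (23310 to 34360 against 13350 to 17310 FPKM). All 7 tested dendritic cell and MHC class II markers fell (1649 to 2245 against 165.6 to 326.1 FPKM), with Flt3 and Zbtb46 under 1 FPKM. The part of these shifts in the changes of the replication and mitosis genes was not tested.

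Markers of other lineages moved in part or in both directions, or were near background. Over all tested genes 9.08% rose and 13% fell. Of 9 erythroid markers 4 fell (140.0 to 165.1 against 104.6 to 122.5 FPKM). Of 6 basophil markers 3 rose (5931 to 7471 against 7519 to 7749 FPKM), and of 9 eosinophil markers 1 rose (6195 to 9335 against 8259 to 11090 FPKM). Of 7 megakaryocyte markers 3 rose and 2 fell, with summed levels of 333.8 to 385.9 and 345.6 to 438.9 FPKM. The 1 tested B cell marker did not pass, and the list summed to at most 3.31 FPKM. The 1 tested T and NK cell marker, Nkg7, fell (59.0 ± 7.76 to 38.6 ± 2.10 FPKM), with Cd8a, Cd4, Ncr1 and Klrb1c under 1 FPKM. Of 2 stroma and endothelium markers Pecam1 rose (72.5 ± 5.36 to 109.3 ± 6.43 FPKM), with the collagen genes under 1 FPKM.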

How the data were processed

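Per the labels' protocols, messenger RNA was enriched with oligo(dT) and read on the Illumina HiSeq platform. HISAT, StringTie 1.2.1, edgeR and build mm10 are listed in the submitters' processing notes, with no role or order. The annotation, counting rules and strandedness were not given in the sources used here. Values were deposited by the authors as FPKM, 1 column per library. Per the file headers, the authors also deposited a signed fold (a score that matched the ratio of FPKM means within a relative tolerance of 0.001 for 99.73% of rows), a t-test p-value and the p-value and adjusted p-value of a second test. FPKM summed to 560387 to 604368 per library, and their low values showed no steps of whole reads, so depth and counting error are unknown.

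FPKM were analysed as log2(FPKM + 1) with limma 3.58.1 in R 4.3.3, with a mean-variance trend and genotype as the only term (3 residual degrees of freedom). Genes with at least 1 FPKM in 2 libraries were tested. In simulated data with 200 genes changed per run, 1.4% of 1.2-fold and 56.6% of 1.5-fold changes were recovered. Recovery at 2-fold was 82.8%, and 4.4% of calls were false. Far fewer genes changed there than passed here, so these shares describe the simulation only. A gene that did not pass may still have changed by a small amount. Fold changes on this scale understate those of low genes. With 10 ways to split the libraries 3 to 2, the smallest two-sided permutation p is 0.2, so no such test was used. Of the gene numbers, 14603 of 14639 matched the GRCm38.p6 annotation, which gave positions. The members and lists were chosen with earlier results of these data known. Genes given per library are members that passed and the most abundant of each role group, with the D cyclins and CDK4 and CDK6, and in the other lists up to 2 of the largest changes in each direction. In all, 17 alternatives were run, of which the replicate block gives the same member log2 changes as leaving out WT replicate 1.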

Additional observations from a re-analysis of the deposited data

How the results depend on the processing

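Alternatives were other pseudocounts, filters, scalings, variance models, a sex term, a replicate block and leaving out each library. Those for the other cell-cycle genes were added after seeing the data. The 11 members that fell became 7 under median-of-ratios scaling, 6 under upper-quartile scaling, 7 under equal totals, 6 under quantile normalization, 7 without the trend and 1 with sex as a term, and 3 to 15 over the left-out libraries (2 that rose: 1 to 2). The median of -0.19 became -0.142, -0.123 and -0.107 under the median-of-ratios, upper-quartile and quantile settings in turn, and -0.22 to -0.15 over left-out libraries. The median of all tested genes moved too, from -0.044 to -0.0019, 0.015 and 0.0067 under those scalings. The member median minus that of all tested genes was -0.144 as deposited and -0.140, -0.138 and -0.114 in turn. Of the other cell-cycle genes, the 18 that fell became 11 under upper-quartile scaling, 11 under equal totals and 3 with sex as a term, and 6 to 30 over left-out libraries; the 9 that rose became 5 with sex as a term and 5 to 7 over left-out libraries. Equal labels of replicate number were shared by only 2 pairs, whose deviations correlated at -0.03 and 0.10. With only 2 knockout libraries such values cannot tell whether the pairs share more than a number. With a replicate block 1 member rose (the call of Ccnd2 was lost, adjusted p = 0.0526) and 5 fell, beside 872 and 1186 of all tested genes. Of the other cell-cycle genes 7 fell. Replicate 1 has only a WT library, so member log2 changes under the block equal those without WT replicate 1. The block is thus not a separate check on them. Of 1036 values for single genes, 851 kept direction and side of the threshold, 151 lost a call, 9 gained one and 25 changed sign, none of which had passed. Signs changed under median-of-ratios scaling for Mcm2 (0.0273), Mcm3 (0.0316), Cdc6 (0.00987) and Cdk2 (0.0209), under upper-quartile scaling for Mcm2 (0.0461), Mcm3 (0.0507), Cdc6 (0.0264) and Cdk2 (0.0397), and under equal totals for Mcm2 (0.0076), Mcm3 (0.0117) and Cdk2 (0.0014). They changed under quantile normalization for Mcm2 (0.0610), Mcm3 (0.0620), Cdc6 (0.0119), Cdk2 (0.0677), Kif11 (0.0041) and Top2a (0.0233), under the replicate block for Cdc6 (0.0075) and with sex as a term for Pcna (0.0436). Over left-out libraries, log2 changes ran from -0.0853 to 0.0227 for Cdc6, -0.0829 to 0.0343 for Cdk2, -0.0772 to 0.0486 for Mcm3, -0.275 to 6.1e-05 for Ccne2 and -0.408 to 0.0224 for Ube2s. The cause of these shifts was not tested. Where a left-out library leaves the knockout with 1 sample, that sample is assumed to vary like WT. Depth is unknown, which limits the reading of low genes such as Ccnd1 most.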
